A study of Mus musculus with 17 samples.

Results

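The ARID genes encode proteins that share the AT-rich interaction domain, a fold that binds DNA. They were followed here in RNA sequencing of mouse fetal liver cells in which the level of Arid3a was to be altered. The 10 genes are Arid3a, Arid3b, Arid3c, Arid5a, Arid5b, Arid1a, Arid1b, Arid2, Arid4a and Arid4b. They were taken by gene name from the 47069 genes of the table with the Arid3a transgene and joined to the other tables by Ensembl identifier, and all 10 were found in every table. The questions were whether a change of Arid3a was shared by its relatives, and whether any relative went the other way.

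The study had 17 libraries. Embryos were taken at E12.5 to 13.5, from a strain on the B6J.129(Cg) background whose Gt(ROSA)26Sor locus carries Cas9 and EGFP behind the CAG promoter. In 14 libraries the cells carried the guide sgGata1 and are named Gata1s cells, after the short form of the blood transcription factor GATA1. Of these, the LUC control (3 libraries) and the libraries labelled Arid3a (3) had doxycycline at 1 µg/mL for 48 h. The control hairpin sh-ctrl (3), the hairpin shArid3a (2, numbered 1 and 3) and the microRNA transgene miR-125b (3) had doxycycline at 1 µg/mL for 10 days. The WT group (3) carried the guide sgLuc and the hairpin shLuc, with no doxycycline listed. The labels do not say whether libraries of a group came from separate cultures or animals, so p-values measure only the spread between these libraries, which may be technical.

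ARID3 proteins bind AT-rich DNA as transcription factors. ARID3A, also called Bright, was found as an activator of the immunoglobulin heavy chain locus and as a partner of E2F factors, and ARID3B and ARID3C are its close paralogs. ARID1A and ARID1B are alternative subunits of the BAF chromatin remodelling complex, and ARID2 is the subunit that marks the related PBAF complex. ARID4A and ARID4B bind the retinoblastoma protein and belong to the SIN3 histone deacetylase complex. ARID5A is also an RNA-binding protein that stabilises inflammatory mRNAs, and ARID5B works with the histone demethylase PHF2. A microRNA such as miR-125b lowers mRNAs whose 3′ untranslated region (UTR) pairs with its seed, bases 2 to 8 from the 5′ end.

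The seed of miR-125b-5p and its longest matches in the family are shown because the miR-125b libraries gave the most called changes. The mature microRNA has 22 bases and is encoded on chromosome 9 (Mir125b-1, 41581940 to 41581961, plus strand) and chromosome 16 (Mir125b-2, 77646279 to 77646300, plus strand; RefSeq, GRCm38.p6). Capitals mark the seed in the microRNA and the 8-base match in each UTR, and all are written 5′ to 3′ on the strand of the transcript:
miR-125b-5p: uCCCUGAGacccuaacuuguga
Arid3a, UTR base 951: agtgcagtggcctcctgtgcCTCAGGGA
Arid3a, UTR base 1884: ccacctccatgggtaactggCTCAGGGA
Arid3b, UTR base 1068: gggtgtagcaggtggggtgaCTCAGGGA
Arid1b, UTR base 3791: tctgtcttcccaaatctgacCTCAGGGA
The Arid3a windows lie at chr10:79952867-79952894 and chr10:79953800-79953827 on the plus strand, in the UTR of 3 of 3 annotated transcripts. The Arid3b window lies at chr9:57791441-57791468 on the minus strand and is in 2 of 7 transcripts. The Arid1b window lies at chr17:5346858-5346885 on the plus strand and is in 2 of 4 transcripts (all GRCm38, GENCODE M21).

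The matches searched, on the sense strand, were the 8mer CTCAGGGA, the 7mer-m8 CTCAGGG without the final A, and the 7mer-A1 TCAGGGA without the leading C. Only matches that are not part of an 8mer were counted as 7mers. Arid3a had 2 8mers, 4 7mer-m8 and 1 7mer-A1 matches in a UTR of 3082 bases. Arid3b had 1 of each kind in its longest UTR of 2160 bases, and Arid1b had its 8mer alone in 4569 bases. The other 7 genes had no match in any annotated UTR, the longest of which ran from 397 bases in Arid3c to 3984 in Arid5b. Of 11522 tested genes with a UTR, 6.87% had an 8mer and 0.365% had 2 or more. Among the 2026 with a UTR of at least 3000 bases these shares were 14.8% and 1.18%. A match is a description of the sequence and not a shown site of action.

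**Figure D1:**
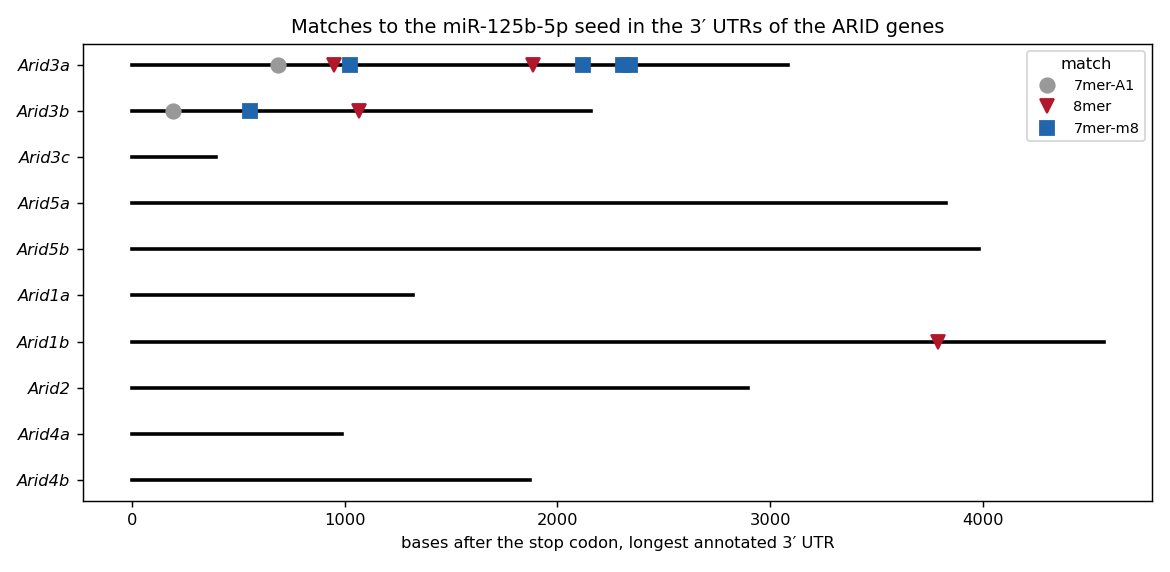
Positions of matches to the miR-125b-5p seed along the longest annotated 3′ UTR of each ARID gene (x axis, bases after the stop codon; line, the UTR). Triangles are 8mers, squares 7mer-m8 and circles 7mer-A1 matches; 7 of them lie in Arid3a, 3 in Arid3b and 1 in Arid1b.

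Levels between genes were compared as counts scaled to the library total (CPM) per kilobase of the gene length in the files. In sh-ctrl cells Arid1a was highest at 15.8 ± 2.30 CPM per kilobase (SD, n = 3). Arid3a followed at 10.4 ± 1.59, then Arid2 at 8.27 ± 0.887, Arid4a at 7.14 ± 1.87 and Arid1b at 6.20 ± 0.762 (SD, n = 3 each). Each of these 4 overlapped its neighbour in the order, while Arid3b (3.55 ± 0.282) and Arid4b (2.54 ± 0.279) each lay apart from their neighbours (SD, n = 3). LUC cells had the same order, with Arid1a at 21.4 and Arid3a at 11.9 CPM per kilobase, where Arid3a overlapped Arid2. Arid5a stood at 0.166 CPM per kilobase in sh-ctrl and 0.0768 in LUC, and Arid5b and Arid3c were lower still. The family therefore consisted, in Gata1s cells, of 7 well-counted genes and 3 with few reads.

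Arid3c was nearly absent from the counts. It had 4 reads in 1 library labelled Arid3a (replicate 1), 1 read in sh-ctrl replicate 1 and 0 in the other 15 libraries. A count of 0 allows up to 3 counts, which is 0.0734 to 0.0957 CPM in the other Gata1s libraries and 0.156 to 0.183 CPM in WT, for counting error only. Arid5b had 0 to 2 reads per library in the table of the hairpins and 2 to 13 in that of the Arid3a transgene. Both genes failed the filter on low counts, so 8 of the 10 genes were tested.

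WT cells had a different order, and Arid3a led it. Arid3a was at 235.6, 285.4 and 304.1 CPM by library total in WT, against 47.8, 60.0 and 65.0 in sh-ctrl and 66.3, 62.8 and 69.5 in LUC. The WT libraries lay above every Gata1s library, of which the highest had 81.7 CPM. Per kilobase Arid3a was at 49.4 ± 6.36 CPM in WT, ahead of Arid1a at 21.9 ± 3.95 (SD, n = 3 each), and the libraries of these genes did not overlap. Arid5a was at 49.7, 41.5 and 51.9 CPM in WT and no higher than 3.38 CPM in any Gata1s library. Arid5b was at 7.76, 13.4 and 20.9 CPM in WT and at most 0.415 CPM elsewhere. Arid3b had 34.2, 36.2 and 40.2 CPM in WT beside 35.3, 34.2 and 36.1 in LUC, with overlapping libraries. It lay above sh-ctrl (29.4, 25.7 and 29.8 CPM) without overlap. Arid1a, Arid1b and Arid2 in WT overlapped LUC as well. Arid1a and Arid1b also overlapped sh-ctrl, while Arid2, at 112.8 to 182.1 CPM in WT, lay above sh-ctrl (79.2 to 98.2) without overlap. Arid4a, at 79.3, 92.7 and 97.0 CPM in WT, lay above every Gata1s library, of which the highest had 64.8 CPM. Arid4b, at 56.3, 81.7 and 93.4 CPM in WT, lay above LUC (42.6 to 51.8) and sh-ctrl (30.9 to 38.5) without overlap, but overlapped the libraries labelled Arid3a (47.1 to 60.5).

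**Figure D2:**
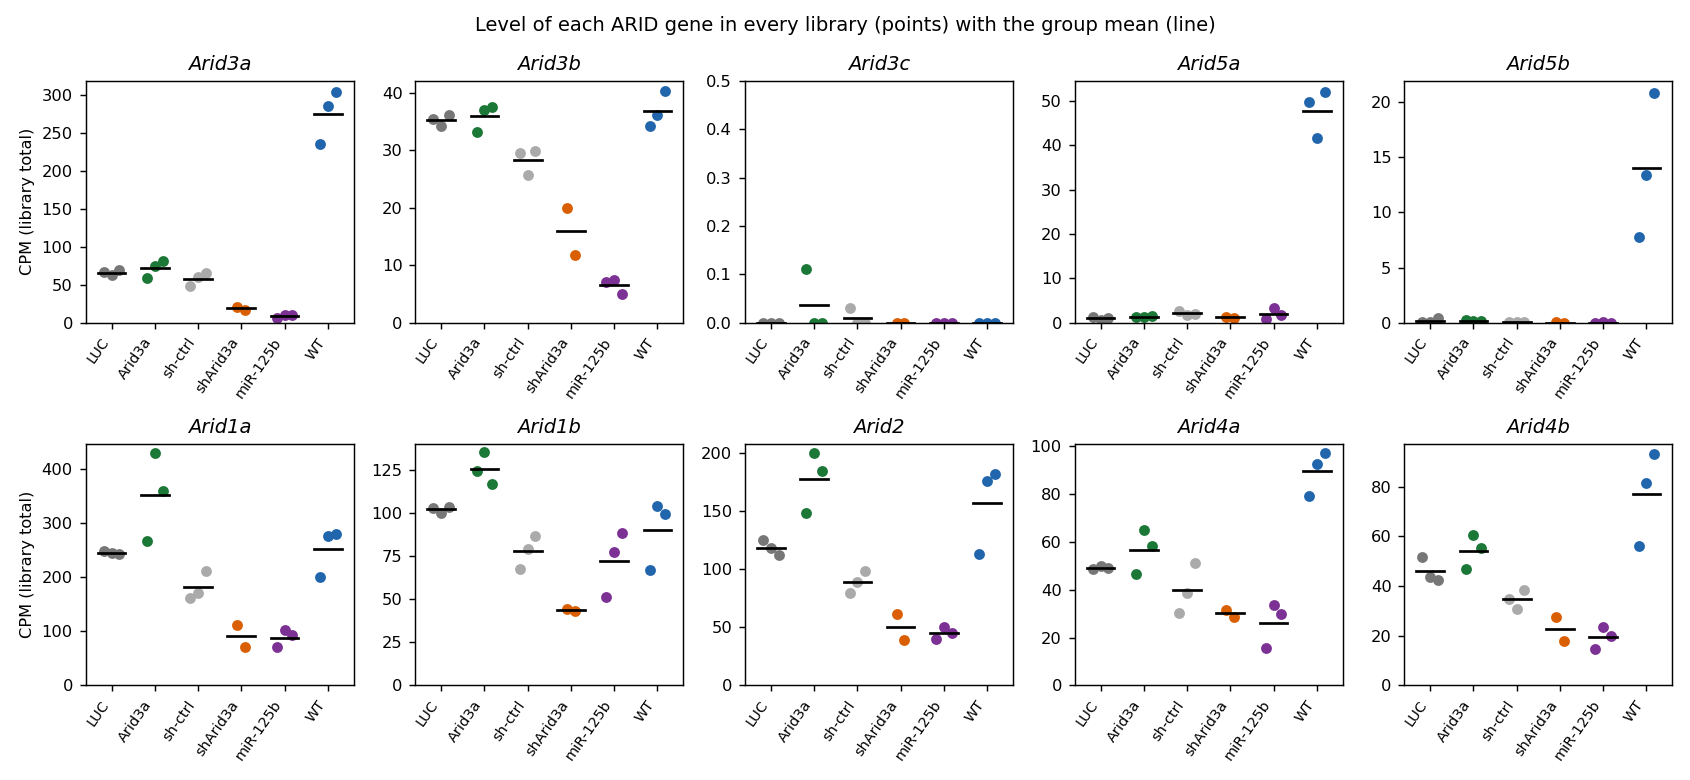
Level of each ARID gene in CPM by library total (y axis, linear, its own scale in each panel) in the 17 libraries (points) of the 6 groups, with the group mean as a line. WT lies above all other libraries for Arid3a, Arid5a, Arid5b and, by less, Arid4a. Every shArid3a and miR-125b library lies below all other libraries for Arid3a, Arid3b, Arid1a, Arid2 and Arid4b.

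No test was made of WT against the Gata1s groups. Guide, hairpin, doxycycline and table all change together there and cannot be told apart. Summed myeloid markers (Mpo, Elane and 6 others) were at 16354 to 21550 CPM in WT and at 9.29 to 160 CPM in the Gata1s groups. Mast cell and basophil markers were at 880 to 981 CPM in WT against 2.02 to 260, and B cell markers at 13.3 to 19.5 against 0 to 0.568, with Pax5 at 0 in WT. The 11 megakaryocyte markers summed to 1476 to 1668 CPM in WT and to 2938 to 5154 in the Gata1s groups, all 11 detected in each group. Erythroid markers summed to 96.2 to 151 CPM in WT and 134 to 661 elsewhere. Hepatocyte markers stayed at or below 4.5 CPM in all libraries. The part of these markers in the levels of Arid3a, Arid4a, Arid4b, Arid5a and Arid5b was not tested. In bulk samples, fewer cells of a type and less RNA per cell cannot be told apart.

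Within tables, levels are given below as CPM scaled by TMM (a correction for library composition), and log2 fold changes and adjusted p-values come from edgeR's quasi-likelihood test with Benjamini-Hochberg adjustment over all genes of the table. A gene was called at an adjusted p under 0.05. Gata1, the target of the guide in every one of these groups, passed the threshold in none of the 4 comparisons (edgeR adjusted p 0.162 to 0.736).

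The libraries labelled Arid3a were compared with LUC to ask what the Arid3a transgene changed. Arid3a itself was at 58.3, 74.3 and 80.1 CPM in the libraries labelled Arid3a and at 67.3, 64.0 and 70.2 CPM in LUC. The groups overlapped, with 1 library below all LUC libraries and the other 2 above them. The log2 fold change was 0.08 (SE 0.12, edgeR adjusted p = 0.737), so the counts show no rise of Arid3a past the test, and whether transcripts of the transgene would be counted under the gene is not given in the sources used here. Its nearest paralog Arid3b was at 32.8, 36.7 and 36.8 CPM against 35.8, 34.8 and 36.4 in LUC, which is −0.01 on the log2 scale (SE 0.08, edgeR adjusted p = 0.949).

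By edgeR 0 of the 8 tested ARID genes were called in these libraries, where 0% of 13495 genes were called. At an unadjusted p under 0.05 by edgeR there were 3, Arid1a, Arid1b and Arid2, beside 21.4% of all genes. Arid2 was at 147, 198 and 181 CPM against 127, 120 and 113 in LUC, all higher, and the log2 difference was 0.55 (SE 0.11, edgeR adjusted p = 0.0895). Arid1a, at 264, 425 and 352 CPM against 252, 249 and 246, also lay above LUC without overlap, with 1 of its libraries close to the control range (log2 fold change 0.48, SE 0.16, edgeR adjusted p = 0.146). Arid1b differed by 0.26 (SE 0.07, edgeR adjusted p = 0.118) and Arid5a by 0.48 (SE 0.34, edgeR adjusted p = 0.462) on the log2 scale, without overlap as well. Non-overlapping higher groups were thus found in 4 of 8 ARID genes, while 13% of all genes had them. Arid4a (0.16) and Arid4b (0.20) overlapped LUC. The call depended on replicate 1 of the libraries labelled Arid3a: without it Arid1a, Arid1b, Arid2 and Arid4a were called by edgeR, as were 23.2% of all genes. DESeq2 on all libraries called Arid1a and Arid2, with 10.7% of all genes.

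Arid1a, Arid1b, Arid2, Arid4b and Arid5a are long genes by the gene length in the files, which is summed exon length and not that of any transcript, from 10737 bases in Arid2 to 13702 in Arid4b. Genes of 10000 bases or more, a set chosen after the values were seen, had a median log2 fold change of 0.30 in this comparison, with 87% of 857 above 0 and 42.7% higher without overlap. The median was 0.23 for the 8 ARID genes and 0.01 for all genes. The part of gene length in the values of the long ARID genes was not tested.

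The hairpin comparison, shArid3a against sh-ctrl, asks what changes when Arid3a is lowered. Arid3a was at 20.4 and 18.9 CPM with the hairpin and at 45.2, 56.3 and 57.2 CPM in sh-ctrl. Both hairpin libraries lay far below the controls and close to each other. Arid3a fell by 1.43 on the log2 scale (SE 0.20, edgeR adjusted p = 0.0368), to 0.372 times its control level. It was the only ARID gene called of the 8 tested, in a comparison where 0.0857% of 14004 genes were called and 0.0357% were called lower. Its fold change stood at place 823 from the lowest of the 14004 genes. The call was lost without sh-ctrl replicate 2 (edgeR adjusted p = 0.109), sh-ctrl replicate 3 (0.171), shArid3a replicate 1 (0.0683) or shArid3a replicate 3 (0.461), with fold changes from −1.48 to −1.37, and when ribosomal RNA-like genes were left out (0.0524).

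No paralog had a higher fitted level in the shArid3a libraries. All 7 other tested genes had a fold change below 0, with a median of −0.63 against −0.02 for all genes. Arid3b was at 20.3 and 12.8 CPM against 27.8, 24.1 and 26.2 in sh-ctrl. The hairpin libraries were lower without overlap but apart from each other, and the log2 fold change of −0.65 (SE 0.26) had an edgeR adjusted p of 0.157. It was −0.35 without shArid3a replicate 3 and −1.02 without shArid3a replicate 1. Of the remodelling subunits, Arid1a was at 113 and 76.6 CPM against 153, 159 and 186 (log2 fold change −0.81, SE 0.19, edgeR adjusted p = 0.0989). Arid2 had 62.5 and 42.5 CPM against 74.7, 83.6 and 86.4 (−0.64, SE 0.18, adjusted p = 0.101), and Arid1b 45.0 and 47.4 CPM against 64.2, 74.3 and 76.6 (−0.63, SE 0.19, adjusted p = 0.109 by edgeR). All 3 were lower without overlap, and Arid1a and Arid2 were lowest in shArid3a replicate 3. Without that library Arid2 was at −0.38 and Arid1a at −0.56.

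The SIN3-associated genes had the fold changes nearest to 0. Arid4b was at 27.8 and 19.5 CPM against 33.0, 29.0 and 33.9 (log2 fold change −0.43, SE 0.22, edgeR adjusted p = 0.231), and Arid4a at 32.1 and 31.2 CPM against 28.7, 36.3 and 45.1 (−0.21, SE 0.28, adjusted p = 0.650), the latter with overlap. Arid4b was at −0.20 without shArid3a replicate 3 and −0.71 without shArid3a replicate 1, and Arid4a at −0.06 without sh-ctrl replicate 3 and −0.39 without sh-ctrl replicate 1. Arid5a, at 1.39 and 1.18 CPM against 2.49, 1.58 and 1.71, gave −0.58 with an SE of 0.52, and −0.38 without sh-ctrl replicate 1. Lower groups without overlap were found in 7 of 8 ARID genes beside 22.2% of all genes. Among 865 genes of 10000 bases or more the share was 50.5% and the median log2 fold change −0.46, and the part of length in these values was not tested. Arid1a, Arid1b and Arid2 were called lower, with Arid3a, by DESeq2 (10.2% of genes called) and by edgeR with no filter on low counts (5.7%).

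The miR-125b transgene gave the most called ARID genes. Against sh-ctrl, 5 of the 8 were called lower and 0 higher, where 24.4% of all genes were called and 12.2% were called lower. The same 5 genes were the ones lower without overlap, beside 23% of all genes. Arid3a was at 7.14, 9.75 and 10.0 CPM against 45.2, 56.3 and 57.2, a fall of every miR-125b library to far below every control. Its log2 fold change was −2.56 (SE 0.18, edgeR adjusted p = 0.000282), or 0.170 times the control level, at place 255 from the lowest of 14004 genes. Arid3b was at 7.97, 7.41 and 5.13 CPM against 27.8, 24.1 and 26.2, with no overlap. It fell by 1.93 on the log2 scale (SE 0.24, edgeR adjusted p = 0.00305), to 0.262 times the control level, at place 497 from the lowest. Arid3a, Arid3b and Arid1b are the genes of the family with a seed match, and the part of these matches in the fold changes was not tested. A 7mer-m8 or 8mer was present in 18.9% of the 11522 tested genes with a UTR. Among the 2026 with a UTR of at least 3000 bases the share was 38.1%.

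The other falls were smaller. Arid1a was at 78.7, 102 and 95.6 CPM against 153, 159 and 186, all lower, and fell by 0.85 on the log2 scale (SE 0.17, edgeR adjusted p = 0.0105). Arid2 was at 44.4, 50.9 and 46.1 CPM against 74.7, 83.6 and 86.4 (−0.79, SE 0.16, edgeR adjusted p = 0.0102). Arid4b, at 16.3, 23.7 and 20.5 CPM against 33.0, 29.0 and 33.9, fell by 0.66 on the log2 scale (SE 0.19, edgeR adjusted p = 0.0319). None of these 3 genes had a match to the seed in an annotated UTR. Arid3a, Arid3b, Arid1a and Arid2 were called in all 14 alternative analyses, and Arid4b in 10 of them. The Arid4b call was lost when sh-ctrl replicate 1 (edgeR adjusted p = 0.0650) or 3 (0.108) was left out, or miR-125b replicate 1 (0.0880) or 3 (0.0747).

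Arid1b, which carries an 8mer, was not called. It was at 57.4, 77.8 and 91.8 CPM with miR-125b and at 64.2, 74.3 and 76.6 CPM in sh-ctrl. The miR-125b libraries spread on either side of the controls, and the difference of 0.08 on the log2 scale (SE 0.17, edgeR adjusted p = 0.760) was −0.01 when sh-ctrl replicate 1 was left out and −0.08 when miR-125b replicate 3 was. Arid4a was at 17.3, 33.7 and 30.6 CPM against 28.7, 36.3 and 45.1 (−0.43, SE 0.25, edgeR adjusted p = 0.219), with overlap. Arid5a was at 1.05, 3.40 and 1.90 CPM against 2.49, 1.58 and 1.71, likewise with overlap (0.14, SE 0.46, edgeR adjusted p = 0.845).

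**Figure D3:**
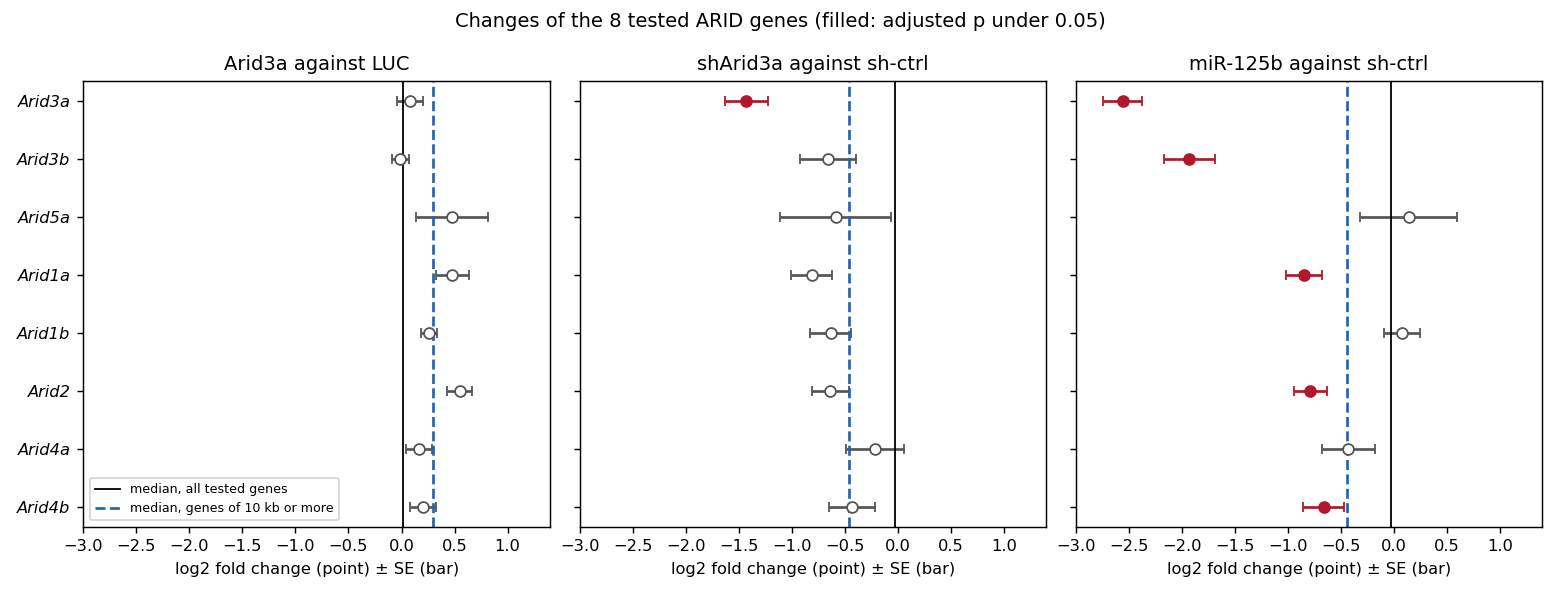
Log2 fold change of the 8 tested ARID genes (points) with its standard error (bars) in the 3 comparisons against a control, on a common linear x axis. Filled red points had an edgeR adjusted p under 0.05: 0 in the first panel, 1 with shArid3a and 5 with miR-125b. The solid line is the median of all tested genes and the dashed line that of genes of 10000 bases or more.

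Genes of 10000 bases or more had a median log2 fold change of −0.44 with miR-125b, 31.6% of them called lower and 47.4% lower without overlap, beside −0.73 for the 8 ARID genes and −0.03 for all genes. Arid3a (5562 bases) and Arid3b (7976 bases) are below that length. They fall among the 5928 genes of 4000 bases or more, whose median was −0.25, with 20.9% called lower and 35.6% lower without overlap. Markers of cell types also changed in this comparison, where 24.4% of all genes were called and 12.2% were called lower. Of 11 megakaryocyte markers 6 were called lower and 1 higher, led by Gp1ba (−1.65) and Itgb3 (−1.68) lower and Gp1bb (0.76) higher, and their sum was 2938 to 3693 CPM against 3440 to 5154 in sh-ctrl. Of 5 tested myeloid markers 3 were called higher, Mpo, Elane and Lyz2, with a sum of 88.4 to 160 CPM against 58.3 to 115 and Csf3r and S100a9 at 0 in sh-ctrl. Of 6 mast cell and basophil markers 2 were called higher, Mcpt8 and Prss34 (sums 22.0 to 260 against 6.75 to 71.9 CPM). Of 8 tested erythroid markers 2 were called lower, Hbb-bs and Hbb-bt (172 to 203 against 349 to 661 CPM, Slc4a1 at 0 in both groups). The only hepatocyte marker tested, Afp, was called higher at 3.73 against 0.657 CPM. The part of gene length and of these markers in the falls of the ARID genes was not tested. DESeq2 called the same numbers except for the mast cell and basophil markers, of which it called 0. In the other comparisons with a control, 0 markers of any list were called by edgeR. At an unadjusted p under 0.05 there were 4 megakaryocyte markers and 1 myeloid marker (Lyz2, −1.13) with shArid3a, beside 25.8% of all genes. DESeq2 called 4 and 1 lower there, with 10.2% of all genes called. In the libraries labelled Arid3a there were 2 megakaryocyte and 6 erythroid markers at that level, beside 21.4% of all genes. DESeq2 called 2 and 3 higher and 1 erythroid marker lower there, with 10.7% of all genes called.

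Setting miR-125b against shArid3a asks how far the effects of the microRNA and of the hairpin differ. Arid3a was lower still with miR-125b, at 7.14 to 10.0 CPM against 20.4 and 18.9 (log2 fold change −1.13, SE 0.19, edgeR adjusted p = 0.0240). Arid3b was lower as well, at 5.13 to 7.97 CPM against 20.3 and 12.8 (−1.28, SE 0.26, edgeR adjusted p = 0.0449). These were the 2 ARID genes called of 8, where 1.35% of genes were called and 0.686% were called lower. Neither call held without shArid3a replicate 1, miR-125b replicate 2 or miR-125b replicate 3, or with the sh-ctrl libraries left out of the fit, that of Arid3a was also lost without shArid3a replicate 3 (edgeR adjusted p = 0.0633), and that of Arid3b with scaling by library totals alone (0.0578). Arid1b was on the other side, at 57.4, 77.8 and 91.8 CPM against 45.0 and 47.4, higher without overlap (0.71, SE 0.19, edgeR adjusted p = 0.110), as 14.4% of all genes were. Lower groups without overlap were those of Arid3a and Arid3b, beside 15.4% of all genes. By DESeq2, by edgeR with no filter and without miR-125b replicate 1 the Arid1b difference was called, with 5.35%, 3.3% and 2.36% of all genes, respectively. Arid1a (−0.04), Arid2 (−0.16), Arid4a (−0.22), Arid4b (−0.23) and Arid5a (0.72) overlapped between the groups. Cell type markers differed here too: edgeR called Mpo (7.91, adjusted p = 0.00899) and Lyz2 (2.52, 0.0240) higher of 5 tested myeloid markers, and Gp1bb (1.09, 0.0221) higher of 11 megakaryocyte markers. Their sums were 88.4 to 160 CPM in miR-125b against 35.3 to 60.6 in shArid3a for the myeloid list, with Csf3r, S100a8 and S100a9 at 0 in shArid3a, and 2938 to 3693 against 3292 to 3327 for the megakaryocyte list. By edgeR 0 of 8 erythroid, 0 of 6 mast cell and basophil and 0 of 1 hepatocyte markers were called, with 2, 2 and 1 at an unadjusted p under 0.05, a level that 14.5% of all genes reached, and DESeq2 called 1 (lower), 0 and 0. DESeq2 called 2 myeloid markers higher, and 1 megakaryocyte marker higher and 1 lower. The part of these markers in the Arid3a and Arid3b differences was not tested.

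A ratio within a library needs no scaling between libraries and shows where Arid3a stood in its own family. Arid3a made up 10.5, 12.1 and 11.2% of all reads of the 10 ARID genes in sh-ctrl. The share was 6.33 and 7.57% in shArid3a, below every control, and 3.10, 3.16 and 3.33% in miR-125b, below both hairpin libraries. It was 9.76, 9.62 and 10.6% in LUC and 8.10, 7.47 and 9.13% in the libraries labelled Arid3a, which were all lower than LUC. There the other 9 genes summed to 662, 920 and 797 CPM scaled by TMM, against 622, 602 and 594 in LUC, while Arid3a itself overlapped LUC. In WT the share was 28.0, 25.8 and 26.0%.

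**Figure D4:**
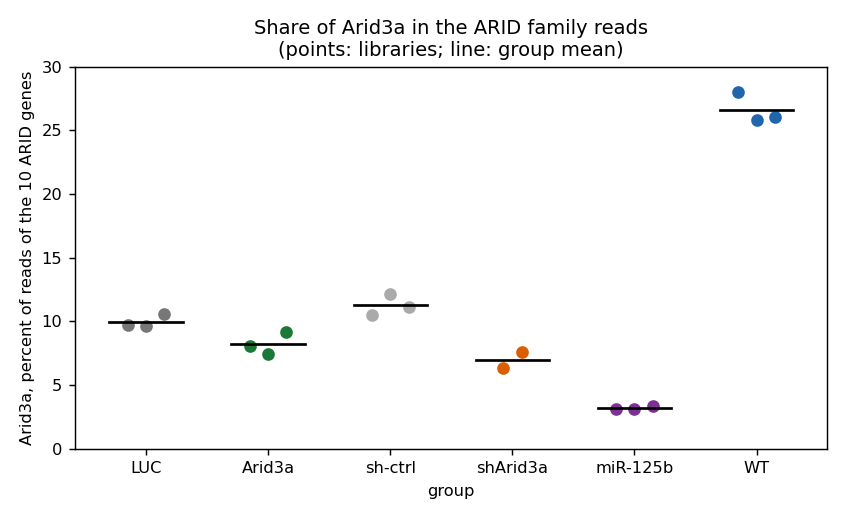
Reads of Arid3a as a percentage of the reads of all 10 ARID genes (y axis) in each library (points), with the group mean as a line. The share is 10.5 to 12.1% in sh-ctrl, 6.33 to 7.57% in shArid3a, 3.10 to 3.33% in miR-125b and 25.8 to 28.0% in WT.

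The log2 ratio of Arid3a to the summed other 9 genes was lower by 0.77 in shArid3a than in sh-ctrl (difference −0.77) and by 1.94 in miR-125b (−1.94). It differed by −1.17 between miR-125b and shArid3a, and by −0.31 between the libraries labelled Arid3a and LUC. Each gave an exact two-sided permutation p of 0.1, the smallest these numbers of libraries allow, so none could reach 0.05. Against Arid3b and Arid3c alone the picture changed. The difference was then −0.73 in shArid3a and −0.61 in miR-125b against sh-ctrl, but 0.08 in the libraries labelled Arid3a (exact permutation p = 0.5) and 0.11 between miR-125b and shArid3a (exact permutation p = 0.9).

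Set against each of the 7 tested relatives in turn, Arid3a was relatively lower without overlap beside 7 of 7 in shArid3a and beside 6 of 7 in miR-125b, the exception being Arid3b. Arid3a itself stood at 0.372 and 0.170 times its control level, so its ratio to any gene that changed less would also be lower. The share of all genes with such a ratio was not computed, so these counts largely restate the fall of Arid3a. The ratio of Arid3a to Arid3b differed by −0.61 on the log2 scale between miR-125b and sh-ctrl, with overlapping libraries, and by −0.73 between shArid3a and sh-ctrl, without overlap. The ratio to Arid1b differed most with miR-125b, by −2.62, and that to Arid4a most with shArid3a, by −1.23. The libraries labelled Arid3a had a lower ratio without overlap beside Arid1a (−0.39) and Arid2 (−0.47) only. Over all 28 such comparisons, miR-125b against shArid3a included, the lowest exact permutation p adjusted over the 28 was 0.147. The comparisons with sh-ctrl share those 3 libraries.

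The question of a rise in a paralog can be put as a count. No ARID gene was called higher in shArid3a or in miR-125b against sh-ctrl, in the analysis as given or in any of its 13 and 14 alternatives. Of all tested genes with a known length, 0.05% and 12.2% were called higher in the analysis as given. With so few ARID genes tested, the absence of such a call therefore says little about the family. The highest fold changes were −0.21 for Arid4a with shArid3a and 0.14 for Arid5a with miR-125b. A test that is missed does not show that the levels were equal, and Arid3c and Arid5b stayed too low to be tested.

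Other genes with an ARID domain were counted as a list of 5, which include Jarid2, a partner of Polycomb repressive complex 2, and the histone demethylase Kdm5a. With miR-125b, 2 of 5 were called lower beside 12.2% of all genes, and all 5 had a fold change below 0 (median −0.66). Jarid2 fell by 1.21 (edgeR adjusted p = 0.00648) and Kdm5a by 0.92 (0.00621) on the log2 scale. By edgeR 0 of 5 were called with shArid3a (median −0.52) and 0 of 4 in the libraries labelled Arid3a (median 0.43). At an unadjusted p under 0.05 there were 2 in each (25.8% and 21.4% of all genes), and DESeq2 called 2 lower and 2 higher, respectively (10.2% and 10.7% called).

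The partners of ARID1 and ARID2 in the BAF and PBAF complexes were mixed. Of 24 tested, 4 were called higher and 5 lower with miR-125b, where 24.4% of all genes were called, 12.2% lower. The median of −0.09 was near the −0.03 of all genes. Bcl7c (log2 fold change 0.82, edgeR adjusted p = 0.00648) and the core subunit Smarcb1 (0.65, 0.0119) rose, while Bicra, a subunit of the non-canonical complex, fell by 1.20 (0.0141). EdgeR called 0 of them in the libraries labelled Arid3a (median 0.01), with shArid3a (−0.12) and between miR-125b and shArid3a (0.09). At an unadjusted p under 0.05 these held 6, 11 and 4 genes, beside 21.4%, 25.8% and 14.5% of all genes. DESeq2 called 3, 4 and 0, beside 10.7%, 10.2% and 5.35%.

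Partners of ARID4 in the SIN3 complex were mixed as well. Of 17 tested, 5 were called higher and 2 lower with miR-125b (24.4% of all genes called, 12.2% lower), with a median of 0.08. Sap18 rose by 0.73 (edgeR adjusted p = 0.00935) and the histone-binding subunit Rbbp7 by 0.65 (0.0179), and the glycosyltransferase gene Ogt fell by 1.10 (0.0150). EdgeR called 0 with shArid3a (median 0.22, 11 of 17 above 0) and 0 in the libraries labelled Arid3a (median −0.10). At an unadjusted p under 0.05 there were 7 and 5 (25.8% and 21.4% of all genes), and DESeq2 called 5 and 2 (10.2% and 10.7%).

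RB and E2F genes, the partners of ARID3A and ARID4A, were counted last. Of 13 tested, 4 were called lower and 0 higher with miR-125b, where 12.2% of all genes were called lower. Fold changes were below 0 in 9 of the 13 and above 0 in 4. The activator E2f2 fell by 1.88 (edgeR adjusted p = 0.00332), Rbl2, which encodes the retinoblastoma relative p130, by 0.92 (0.0150) and Rb1 by 0.63 (0.0394). E2f2 was also lower in miR-125b than in shArid3a (log2 fold change −1.98, edgeR adjusted p = 0.00899). EdgeR called 0 of 13 with shArid3a (median −0.27) and 0 of 13 in the libraries labelled Arid3a (median 0.01). At an unadjusted p under 0.05 there were 1 and 5 (25.8% and 21.4% of all genes), and DESeq2 called 1 and 2 (10.2% and 10.7%), all lower.

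Genes whose profile lay closest to each called ARID gene were found among 8459 well-counted genes, as the root mean square difference of log2 CPM, relative to the control of the same table, over the 14 Gata1s libraries. Nearest to Arid3a were Unkl (0.26), a zinc finger gene, Ache (0.39), which encodes acetylcholinesterase, and Uvssa (0.40), a gene of transcription-coupled DNA repair. The median of all genes was 1.35. Unkl had log2 fold changes of 0.22 in the libraries labelled Arid3a, −1.22 with shArid3a and −2.20 with miR-125b. Within the family, Arid3b was closest to Arid3a at 0.48, at place 10 among all these genes. Seen from Arid3b, Arid3a was the closest family member but at place 133. Nearest to Arid3b were Cttn (0.21), which encodes the actin-binding protein cortactin, Idi1 (0.23), an enzyme of isoprenoid synthesis, and Trim26 (0.24).

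Nearest to Arid1a were Elmsan1, Prrc2c and Ice1 (0.09 each), where the median of all genes was 0.65. Arid2 was the family member closest to Arid1a, at 0.11 and place 15. Seen from Arid2, Arid1a was the closest family member, at place 5. Nearest to Arid2 were the tumour suppressor Apc, the demethylase Kdm5a and the remodeller Ep400 (0.09 each, median 0.60). Arid4b was nearest to Scyl2 (0.08), the uridylyltransferase Tut4 (0.08) and the mRNA termination factor Pcf11 (0.10), where the median was 0.49. These distances describe the 14 libraries, which share controls within each table.

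The genes lie on 8 chromosomes and only Arid3a and Arid5b, and Arid3c and Arid1a, share a chromosome. Arid3a (ENSMUSG00000019564) spans chromosome 10, 79927043 to 79955018, plus strand, and no exon of another annotated gene overlaps its exons. Overlaps were looked for between exons only. Arid3b (ENSMUSG00000004661) spans chromosome 9, 57790353 to 57836793, minus strand, and Gm17231 overlaps it on the other strand. Arid4b (ENSMUSG00000039219) spans chromosome 13, 14063232 to 14199603, plus strand, and overlaps Ggps1 on the other strand. The use of strand in counting is not given in the sources used here, so reads of these antisense pairs cannot be told apart. Arid1a (ENSMUSG00000007880) lies on chromosome 4, 133679008 to 133756769, minus strand, Arid1b (ENSMUSG00000069729) on chromosome 17, 4994332 to 5347656, plus strand, and Arid2 (ENSMUSG00000033237) on chromosome 15, 96287518 to 96404992, plus strand, where Gm25397 overlaps it on the same strand. The length of Arid5b in the files, 4494 bases, is 0.447 times the 10060 bases of its GENCODE M21 exons, and that of Arid4b, 13702 bases, is 0.808 times its 16965 bases there, so their levels per kilobase depend on which is used.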

How the data were processed

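Gene counts of 17 libraries in 3 tables were used. The deposited files hold raw read counts per gene that the authors had not normalized. Per the submitters' processing notes the tools were fastp, HISAT2 2.0.5 and featureCounts with build mm10; the annotation release and the use of strand are not given in the sources used here. Library totals were 31339238 to 38678649 counts (LUC and Arid3a), 31992089 to 40859301 (sh-ctrl, shArid3a, miR-125b) and 16362439 to 19212193 (WT). No pair of libraries of the same group agreed within counting noise, and pairs across groups were not examined for this.

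Groups came from the labels. Each of the first 2 tables was fitted whole in edgeR 4.0.16 (R 4.3.3) with TMM scaling, filterByExpr, 1 term per group and the quasi-likelihood test. The fit was checked on simulated counts with the same spread for every gene and no outlying library. That check therefore does not cover genes of unlike spread or outlying libraries. The WT table was described only. Standard errors were derived from the F statistics. Ratios within libraries were tested by exact permutation over libraries, two-sided. Alternatives were DESeq2 1.42.0, other scalings and filters, a replicate block, 5 ribosomal RNA-like genes left out, and each library left out. Of same-numbered miR-125b and sh-ctrl libraries, deviations from the group means correlated at 0.45, 0.15 and 0.49 across 8662 genes. Unlike-numbered libraries ran from −0.53 to 0.29, and miR-125b replicate 2 was closer to sh-ctrl replicate 3 (0.29) than to sh-ctrl replicate 2. These values do not settle whether the numbers pair the libraries, and the labels do not state it. UTRs were read from GENCODE M21 (GRCm38) and the microRNA from RefSeq.

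Named were all 10 ARID genes, Gata1, up to 3 called genes per list by smallest adjusted p, and the 3 most alike profiles per called gene. The members and lists were chosen with earlier results of these data known.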

Additional observations from a re-analysis of the deposited data

How the results depend on the processing

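Counts of called ARID genes moved with the setting in all 4 comparisons, least for miR-125b against sh-ctrl. For the libraries labelled Arid3a against LUC the count was 0 in 11 of 13 alternatives, 2 with DESeq2, and 0 to 4 with 1 library left out. For shArid3a against sh-ctrl it was 4 with no filter and with DESeq2, 0 with ribosomal RNA-like genes left out, and 0 to 1 with 1 library left out. For miR-125b against sh-ctrl it was 5 in 10 alternatives and 4 in the other 4, without Arid4b. For miR-125b against shArid3a it was 1 with library totals alone (Arid3a; 1.11% of all genes called), 0 with only the groups compared (0.983%), 3 with DESeq2 (5.35%) and with no filter (3.3%), and 0 to 3 with 1 library left out (0.0808% to 2.36%). With a group reduced to 1 shArid3a library, that library is assumed to vary like the other groups.

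Fold changes of genes that were not called changed sign in some alternatives. With library totals alone Arid3b gave 0.028 against LUC, and Arid5a −0.024 and Arid1b −0.11 with miR-125b. This scaling also moved the median of all genes to −0.22 in both comparisons with sh-ctrl, and the share of miR-125b calls that were higher to 26.6%. With 1 library left out, Arid3b against LUC ranged from −0.040 to 0.050 and Arid3a from −0.019 to 0.21. With miR-125b against sh-ctrl, Arid5a ranged from −0.39 to 0.46 and Arid1b from −0.083 to 0.24. In miR-125b against shArid3a, Arid1a ranged from −0.29 to 0.27, Arid2 from −0.41 to 0.15, Arid4a from −0.39 to 0.025 and Arid4b from −0.47 to 0.047. The ratio of Arid3a to Arid3b and Arid3c alone gave 0.078 against LUC and 0.11 for miR-125b against shArid3a. The causes were not tested.

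The replicate block left all counts of called ARID genes as given (0, 1, 5 and 2). Outside miR-125b against sh-ctrl the same-numbered libraries correlated from −0.16 to 0.32, and no label states a pairing in any comparison. Depth limits Arid3c, Arid5b and, at under 4 CPM in Gata1s cells, Arid5a.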
